A study of Homo sapiens with 12 samples.

Results

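CAPN6 and the calpain family are described here across MTHFD2 wild-type and knock-out cells of HCT116, a human colon carcinoma line. The 9 genes are CAPN6, the large subunits CAPN1, CAPN2, CAPN5, CAPN7, CAPN10 and CAPN15, the small subunit CAPNS1 and the inhibitor calpastatin (CAST). They were matched by gene ID among the 60648 genes of the deposited count table, and all 9 were among the 18289 genes that passed a filter on low counts. CAPN6 was chosen by its measured values in these libraries, its change over time in the knock-out and its interaction of genotype and harvest, and the rest of the set by family. CAPN6 is therefore described with values and standard errors and no test, and tests are given for the other genes.

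The study has 12 poly-A selected RNA-seq libraries, 3 in each of 4 groups. The initial wild type and the initial knock-out were harvested at the start, when the CRISPR-Cas9 knock-out had just been made, and the final wild type and the final knock-out 2 months of culture later. All groups grew in DMEM with fetal bovine serum, with no other treatment in the labels. The knock-out groups come from 1 isolated clone, so a difference between genotypes cannot be told apart from other properties of that clone, and whether the wild-type cells were cloned is not given in the sources used here. The submitters describe the libraries of a group as biological replicates. No label names a separate source for each, and p-values measure only the spread between these libraries.

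Calpains are cysteine proteases of the cytoplasm that calcium activates. They cut their substrates at a few places rather than degrading them, and cytoskeletal and adhesion proteins are among the known substrates. The classical enzymes, calpain-1 (CAPN1) and calpain-2 (CAPN2), each pair with the small subunit CAPNS1 and are held back by calpastatin. CAPN6 is known from the placenta and from embryonic muscle. It lacks the catalytic cysteine, binds microtubules and has been linked to GEF-H1 (ARHGEF2), a guanine nucleotide exchange factor that microtubules hold inactive.

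The codon of that cysteine is what sets CAPN6 apart from the rest of the family, so the coding sequence around it is printed for CAPN6, for both classical enzymes, for CAPN5 and for CAPN13, whose values come up again below. The runs are from GENCODE 29 transcripts, 5′ to 3′ on the coding strand, with 18 bases before and 12 after the codon, which is in capitals.
CAPN1: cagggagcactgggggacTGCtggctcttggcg
CAPN2: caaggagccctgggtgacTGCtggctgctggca
CAPN5: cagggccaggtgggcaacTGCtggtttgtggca
CAPN13: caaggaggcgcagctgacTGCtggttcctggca
CAPN6: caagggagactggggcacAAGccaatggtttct
Of the 11 calpain large subunits aligned, 10 have TGC, a cysteine codon, at this place. CAPN6 has AAG, a lysine codon, at its codon 81, which lines up with codon 105 of CAPN2.

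The libraries held 38597809 to 40017561 counts, with 27536 to 29015 genes detected in each. MTHFD2 was checked first. It lay between 318.6 and 456.6 CPM (counts relative to the library total, scaled with TMM factors) in the 6 wild-type libraries and between 122.8 and 155.3 CPM in the 6 knock-out libraries, so every library matched its label. Of 13 markers of colon epithelium, 6 had a mean of at least 1 CPM, from KRT8 at 1128 CPM down to CDX1 at 0.00217 CPM. Their summed level was 2625 to 3233 CPM in the initial and 3062 to 3203 CPM in the final wild type. In the knock-out it was 2466 to 2705 CPM at the initial and 2215 to 2589 CPM at the final harvest. The fibroblast markers DCN and LUM, the T-cell marker CD3E and the muscle factor MYOD1 had 0 counts in every library. At least 1 CPM was reached by 2 of 6 fibroblast, 0 of 5 haematopoietic, 2 of 4 endothelial and 3 of 5 muscle markers.

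CAPN6 (ENSG00000077274.9, GRCh38 chromosome X, 111245099 to 111270483, minus strand) overlaps no other gene of the table. Its level in wild-type cells was 4.76, 4.18 and 5.71 CPM at first and 1.87, 1.62 and 2.43 CPM at the end. All 3 final wild-type libraries lay below all 3 initial ones. In knock-out cells it was 4.19, 4.89 and 4.26 CPM at first, inside the range of the initial wild type. At the end it was 17.3, 15.8 and 19.1 CPM, above each of the other 9 libraries. These levels rest on 62 to 94 counts per library in the final wild type, 166 to 228 counts in the initial groups and 621 to 761 counts in the final knock-out.

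Averaged over the 3 libraries of a group, CAPN6 stood at 4.88 ± 0.772 CPM (SD) in wild-type cells at first and at 1.97 ± 0.417 CPM at the end, against 4.45 ± 0.385 and 17.4 ± 1.64 CPM in knock-out cells. In the order of these levels, the initial knock-out and the initial wild type are the only neighbours whose libraries overlap. The difference of knock-out from wild type was -0.13 on the log2 scale (SE 0.148) at the initial harvest and 3.14 (SE 0.156) at the final harvest. The final harvest differed from the initial one by -1.30 (SE 0.163) in the wild type and by 1.97 (SE 0.142) in the knock-out. The genotype difference at the final harvest therefore adds up from a lower level in the wild type and a higher level in the knock-out. The change between harvests differed between the genotypes by 3.27 (SE 0.215), a 9.66-fold difference of ratios. The comparisons share groups and are not independent of each other. Under 20 other ways of processing, including the removal of each library in turn, the final genotype difference stayed between 3.00 and 3.31.

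**Figure D1:**
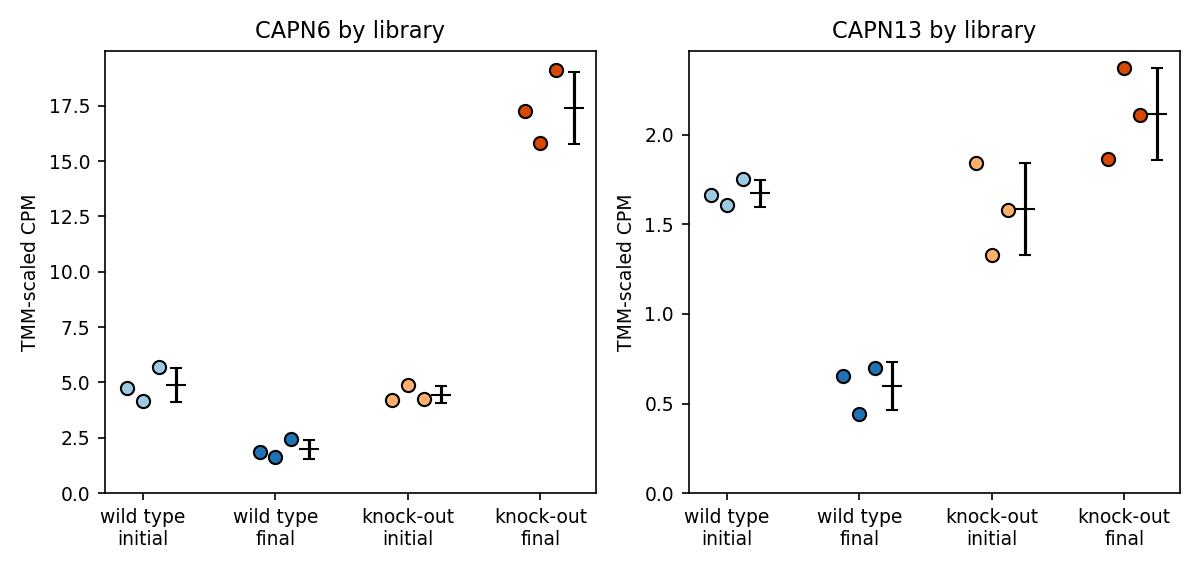
TMM-scaled CPM of CAPN6 (left) and CAPN13 (right) in the 12 libraries by group, 1 point per library, with the mean and SD of each group beside the points. In both genes the final wild type is lowest, at 1.62 to 2.43 CPM for CAPN6 and 0.443 to 0.698 CPM for CAPN13, and the final knock-out is highest.

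The start region of CAPN6 is shown with its CpG dinucleotides marked, beside that of CAPN13, the calpain gene whose levels were most like those of CAPN6. The CAPN6 stretch borders the gene as counted, which starts at 111270483. That of CAPN13 lies inside the gene as counted, which reaches to 30820542, so it precedes another annotated start. The sequences are the 250 bases before the annotated start in RefSeq (GRCh38.p14), on the minus strand, chrX:111270484-111270733 for CAPN6 and chr2:30807447-30807696 for CAPN13, with each CG in capitals.
CAPN6: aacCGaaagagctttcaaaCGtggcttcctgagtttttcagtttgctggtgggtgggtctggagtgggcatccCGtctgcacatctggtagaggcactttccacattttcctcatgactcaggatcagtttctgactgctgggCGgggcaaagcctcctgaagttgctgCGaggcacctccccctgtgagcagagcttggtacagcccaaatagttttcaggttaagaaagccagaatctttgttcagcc
CAPN13: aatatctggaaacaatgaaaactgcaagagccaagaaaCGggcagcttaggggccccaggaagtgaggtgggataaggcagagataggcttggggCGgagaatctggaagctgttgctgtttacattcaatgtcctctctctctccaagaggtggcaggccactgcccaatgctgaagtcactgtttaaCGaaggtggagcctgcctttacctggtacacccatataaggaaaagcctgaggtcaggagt
In the 300-base windows that add 50 bases after the start, CAPN6 and CAPN13 each hold 5 CpG. The median of all 35116 windows was 14, and 33.7% of them held 5 or fewer. Of the other members, 7 had at least 1 window, and the richest window of each held between 28 and 45 CpG. The poorest windows of CAPN2, calpastatin and CAPNS1 held 2, 3 and 13, that of CAPN8 held 1, and CAPN3 had windows with 0 to 7, so a start region with few CpG is not particular to CAPN6 and CAPN13. This is a description of the reference sequence, and no methylation or binding was measured in these libraries.

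Levels of different genes are compared in TPM, a unit that divides counts by gene length (here the summed exon length in the deposited table). The regulatory subunit CAPNS1 was the most abundant member at 344 TPM (mean of 12 libraries), followed by CAPN1 at 172 ± 17.98 TPM and CAPN2 at 141 ± 8.12 TPM. The ranges of CAPN1 (137 to 197 TPM) and CAPN2 (121 to 152 TPM) overlap, while within each library CAPN1 was the higher. Calpastatin followed at 36.8 ± 3.42 TPM, apart from both of its neighbours. CAPN7, an atypical calpain without the calmodulin-like domain, had 22.1 ± 2.26 TPM, and CAPN10, known from a type 2 diabetes locus, had 21.9 ± 2.79 TPM. By summed exon length these 2 did not differ beyond their spread. With the longest transcript as the length CAPN10 was the higher, at 61.8 TPM against 28.4 TPM for CAPN7. CAPN15, the human counterpart of the fly gene small optic lobes, had 14.9 ± 2.18 TPM and CAPN5, a close relative of CAPN6, had 12.1 ± 1.34 TPM, with overlapping libraries.

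CAPN6 was the least abundant member over all libraries, at 7.07 TPM with a range from 1.46 to 18.5 TPM. In the final knock-out alone it had 16.8 ± 1.51 TPM, beside 15.7 ± 2.01 TPM for CAPN15 and 10.7 ± 0.998 TPM for CAPN5. All 3 final knock-out libraries of CAPN6 (15.6 to 18.5 TPM) lay above those of CAPN5 (9.64 to 11.6 TPM). The order depends on the length used. By the longest protein-coding transcript, an alternative chosen after seeing the data, CAPN6 had 16.6 TPM there, CAPN5 15.0 TPM and CAPN15 26.4 TPM. The ratio of CAPN6 to CAPN5 was 0.377 in the initial wild type, 0.147 in the final wild type, 0.377 in the initial knock-out and 1.58 in the final knock-out. By the longest transcript it was 0.267, 0.104, 0.268 and 1.12.

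**Figure D2:**
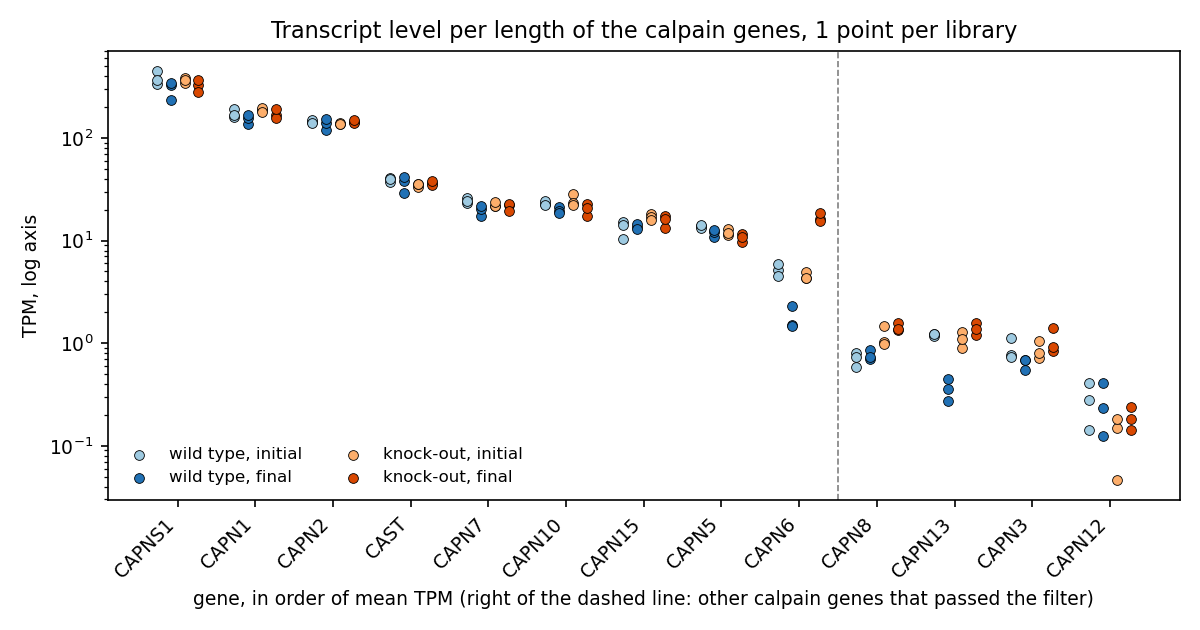
TPM on a log axis of the 9 members and, right of the dashed line, of the 4 other calpain genes that passed the filter, 1 point per library, coloured by group. The libraries of CAPN6 spread from 1.46 to 18.5 TPM, while those of CAPN1 span 137 to 197 TPM.

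As a share of the summed TPM of 14 calpain large-subunit genes, the 7 among the members and 7 others, CAPN6 made up 1.31 ± 0.230% in the initial wild type, 0.485 ± 0.0998% in the final wild type, 1.10 ± 0.0610% in the initial knock-out and 4.14 ± 0.157% in the final knock-out. With the longest transcript as the length these shares were 0.564 ± 0.102%, 0.208 ± 0.0429%, 0.472 ± 0.0262% and 1.81 ± 0.0634%, so their size depends on the length and their order over the groups was the same. CAPN1 and CAPN2 together made up 77.9% to 80.7% in the 4 groups, or 83.2% to 84.5% by the longest transcript. The summed level itself was 361 to 410 TPM. The ratio of CAPNS1 to CAPN1 plus CAPN2 lay between 1.03 and 1.20 and that of calpastatin between 0.107 and 0.124, as group means. By the longest transcript they lay between 0.688 and 0.802 and between 0.131 and 0.152. At the level of transcripts, CAPN1 and CAPN2 held most of the summed large-subunit signal in every group, also where CAPN6 was highest.

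Among the 8 other members, the initial harvest gave 1 with a higher level in the knock-out and 0 with a lower one (edgeR's quasi-likelihood test, Benjamini-Hochberg adjusted p under 0.05). Of all genes tested, 19.9% were called there, 8.55% higher and 11.3% lower, so 1 of 8 members is no more than the share over all genes. The member called was CAPN15. It read 21.4, 31.8 and 31.3 CPM in the initial wild type and 39.2, 38.7 and 35.4 CPM in the initial knock-out. The groups did not overlap, and the wild-type replicate 1 lay well below the other two. CAPN15 was higher in the knock-out by 0.42 on the log2 scale (SE 0.133, adjusted p 0.0334, 95% interval 0.14 to 0.71). Without the initial wild-type replicate 1 the difference was 0.26 (adjusted p 0.112), and the call was also lost without the initial knock-out replicate 1 (0.40, adjusted p 0.0961) or replicate 2 (0.41, adjusted p 0.104).

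At the final harvest, 0 of the 8 members were higher and 1 was lower in the knock-out. Of all genes, 18.5% were called, 8.38% higher and 10.2% lower, and 1 of 8 is again no more than that share. The member called was CAPN5, which like CAPN6 lacks the calmodulin-like domain. It read 23.5, 23.5 and 23.1 CPM in the final wild type and 17.8, 20.5 and 19.6 CPM in the final knock-out, with no overlap. CAPN5 was lower in the knock-out by 0.28 on the log2 scale (SE 0.0846, adjusted p 0.0292, 95% interval -0.46 to -0.10), at 82.4% of the wild-type level. The call held in 12 of 20 other ways of processing, with adjusted p from 0.0133 to 0.124. Over the 12 libraries CAPN5 and CAPN6 had a Pearson correlation of -0.763 in log2 CPM. Both shared those libraries and their scaling, and the value is a description.

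Over the 2 months, 0 of the 8 members were called in the wild type, where 6.47% of all genes were (3.05% higher, 3.42% lower). There, 2 members had an unadjusted p under 0.05, CAPN2 at 0.19 (SE 0.0751, adjusted p 0.159) and CAPN15 at 0.32 (SE 0.133, adjusted p 0.188), and DESeq2 called 1, CAPN2 (adjusted p 0.0405). In the knock-out 0 members were called with edgeR and with DESeq2, and 0 had an unadjusted p under 0.05, while 1.48% of all genes were called (0.837% higher, 0.64% lower). In the interaction, which compares the change between harvests across genotypes, 0 members were called with either tool, 0 had an unadjusted p under 0.05, and 1.28% of all genes were called (0.809% higher, 0.476% lower). These p-values do not show that the members were alike in the groups. The log2 differences of the 8 members lay between -0.19 and 0.14 over time in the knock-out, with 95% intervals reaching from -0.43 to 0.32, and between -0.36 and 0.04 in the interaction, with intervals from -0.76 to 0.37.

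The values of the members with no call were as follows. CAPN1 had 310.8 to 419.8 CPM over the 12 libraries and differed by 0.19 (SE 0.0956, adjusted p 0.176) between genotypes at the initial harvest. CAPN2, which lies beside CAPN8 on chromosome 1, had 318.8 to 387.8 CPM, and all 3 final libraries were above all 3 initial libraries in each genotype. CAPNS1, the subunit both of these enzymes need, had 248.2 to 364.8 CPM and differed by -0.09 to 0.00 in the 4 comparisons of groups. Calpastatin had 121.6 to 165.6 CPM and differed by 0.14 over time in the wild type (SE 0.0885) and by 0.14 in the knock-out (SE 0.0886). CAPN7 had 31.9 to 37.9 CPM and CAPN10 had 38.9 to 57.3 CPM.

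**Figure D3:**
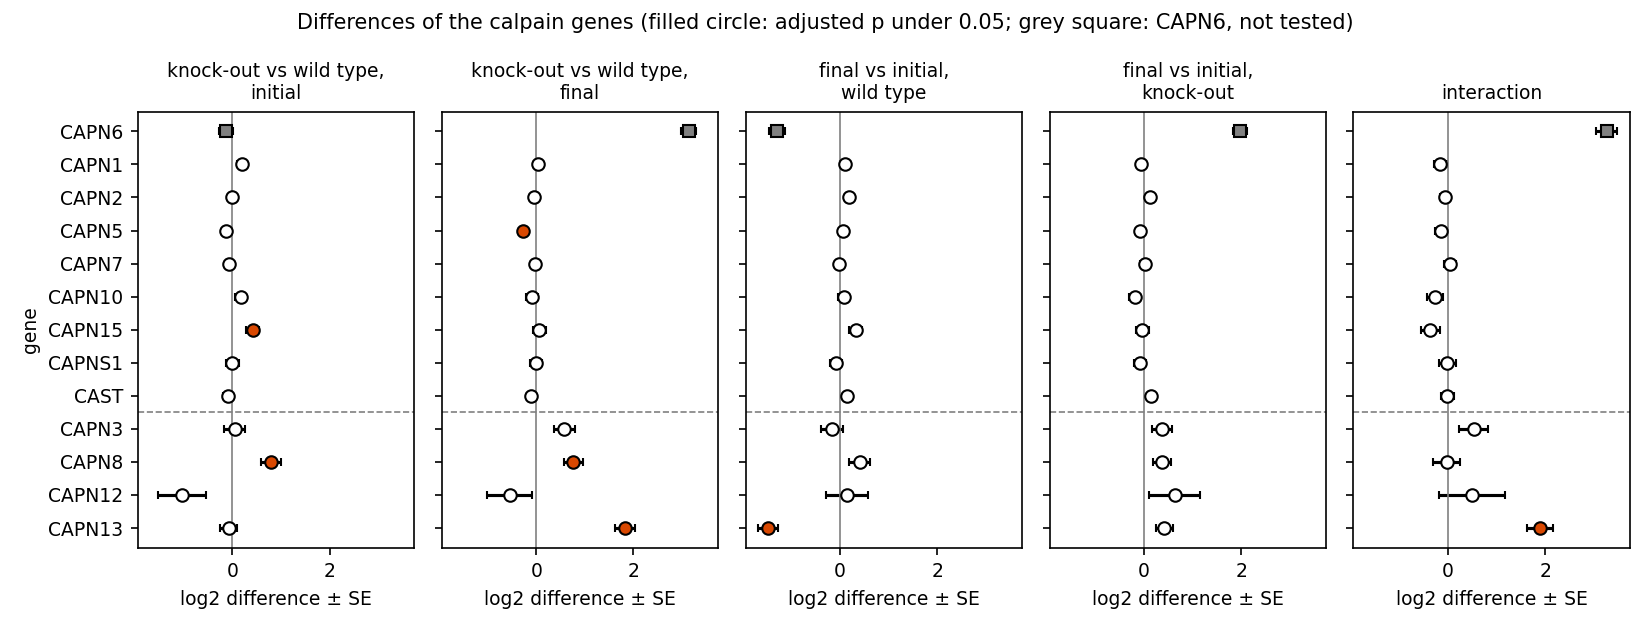
Log2 differences with SE of the 9 members and, below the dashed line, 4 other calpain genes in the 5 comparisons. CAPN6 (grey square, no test) stands at 3.14, -1.30, 1.97 and 3.27 in all but the first panel. Filled circles mark an adjusted p under 0.05: CAPN15 and CAPN8 at the initial harvest, CAPN5, CAPN8 and CAPN13 at the final harvest, and CAPN13 in the wild type over time and in the interaction.

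Of 9 further calpain genes, 4 passed the filter: CAPN3, the muscle calpain, CAPN8, known from the stomach, CAPN12 and CAPN13. Of these 4, 1 was called higher at the initial harvest and 2 at the final harvest, 1 was called lower over time in the wild type, and 1 had a positive interaction. Over time in the knock-out 0 were called with edgeR and 0 with DESeq2, and 1 had an unadjusted p under 0.05. These counts are 25.0%, 50.0%, 25.0%, 25.0% and 0% of the 4, beside 19.9%, 18.5%, 6.47%, 1.28% and 1.48% of all genes, and with 4 genes each call moves the share by 25.0 percentage points.

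CAPN13 (ENSG00000162949.16, chromosome 2, 30722771 to 30820542, minus strand) is a calpain of little-studied function. In wild-type cells it read 1.66, 1.61 and 1.75 CPM at first and 0.651, 0.443 and 0.698 CPM at the end. In knock-out cells it read 1.84, 1.33 and 1.58 CPM at first and 1.86, 2.37 and 2.11 CPM at the end. The final wild type was lowest in all 3 libraries, as for CAPN6, while the initial groups overlapped. CAPN13 fell by 1.48 over time in the wild type (SE 0.209, adjusted p 0.000365) and did not pass the test in the knock-out, at 0.42 (SE 0.176, adjusted p 0.276). At the final harvest it was 3.53-fold higher in the knock-out (log2 difference 1.82, SE 0.204, adjusted p 7.04e-06). The interaction was 1.90 (SE 0.274, adjusted p 0.00132). These 3 calls held under every alternative that gave a value, on 17 to 93 counts per library. A gene on the same strand overlaps CAPN13, and its part in these counts was not tested. The Pearson correlation of CAPN13 with CAPN6 over the 12 libraries was 0.833, rank 86 of 17468 genes, a description of libraries that share depth and groups.

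CAPN8 had 1.07, 0.791 and 1.03 CPM in the initial wild type and 2.09, 1.504 and 1.43 CPM in the initial knock-out. It was higher in the knock-out by 0.80 there (SE 0.203, adjusted p 0.0106), a call lost without the initial knock-out replicate 1 (0.61, adjusted p 0.0667). At the final harvest it had 1.55, 1.15 and 1.14 CPM in the wild type and 2.09, 2.32 and 2.08 CPM in the knock-out. This was a difference of 0.76 (SE 0.192, adjusted p 0.00989), lost without the final wild-type replicate 2 (0.68, adjusted p 0.054) or replicate 3 (0.68, adjusted p 0.0523). The groups did not overlap at either harvest. CAPN3 had a final genotype difference of 0.58 (SE 0.215, adjusted p 0.0749), which passed with DESeq2 (adjusted p 0.0486), without the filter (adjusted p 0.0115) and without the initial wild-type replicate 1 (adjusted p 0.0407). CAPN12 had 3 to 28 counts per library and no call. CAPN9, CAPN11, CAPN14 and CAPNS2 did not pass the filter and had at most 8, 4, 7 and 4 counts in a library. For CAPN9 these were 5 to 7 counts in the final knock-out and 1 count in each final wild-type library, too few for a comparison at this depth.

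The protein-coding genes next to CAPN6 on chromosome X were read to see what else the region gave. PAK3, a kinase gene 17.7 kb away, had 0 to 3 counts per library, and DCX, a microtubule-binding gene of neurons 23.3 kb away, had 0 to 2. CHRDL1 had 0 or 1 count and SERTM2 had 0 counts in every library. ALG13, a glycosylation enzyme gene 395.3 kb away, had 1103 to 1555 counts. Its initial genotype difference of -0.23 (SE 0.085, adjusted p 0.0655) was not called with edgeR, though the groups did not overlap. It was called with DESeq2 (adjusted p 0.0444) and without the final wild-type replicate 1 (adjusted p 0.0414). The final genotype difference of ALG13 was -0.07 (SE 0.0851). RTL9, a gene derived from a retrotransposon 788.8 kb away, had 8, 6 and 14 counts in the final wild type and 32, 22 and 20 counts in the final knock-out. It was 2.52-fold higher in the knock-out there (log2 difference 1.33, SE 0.312, adjusted p 0.00601). The nearest gene on each side of CAPN6 thus had at most 3 counts in any library.

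Among the 5 genes whose log2 CPM followed CAPN6 most closely over the 12 libraries, of 17468 genes with over 3 counts in each, were B3GALT1 (r = 0.941), NAV3 (0.936), EPB41L4A (0.934) and CEMIP (0.932). These 4 lie on chromosomes 2, 12, 5 and 15. They were picked for this likeness, so their values are given with no test. B3GALT1, a galactosyltransferase gene, had 0.904, 0.741 and 1.23 CPM in the initial wild type, 0.380, 0.391 and 0.414 in the final wild type, 1.56, 1.28 and 2.04 in the initial knock-out and 4.50, 3.83 and 3.79 in the final knock-out. Its final genotype difference was 3.34 (SE 0.229), near that of CAPN6, and unlike CAPN6 its initial groups did not overlap. NAV3, which encodes a microtubule-associated protein, had 16.8 to 22.1 CPM in the other groups and 46.3 to 51.5 CPM in the final knock-out. CEMIP, which encodes a hyaluronan-binding protein, had 35.2 to 67.8 CPM in the other groups and 108.9 to 122.9 CPM in the final knock-out. EPB41L4A differed less, with a final genotype difference of 0.68 (SE 0.114). The 2 genes least like CAPN6 were ENSG00000279495 (r = -0.931) and IFNLR1 (-0.930), a subunit of the interferon lambda receptor.

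**Figure D4:**
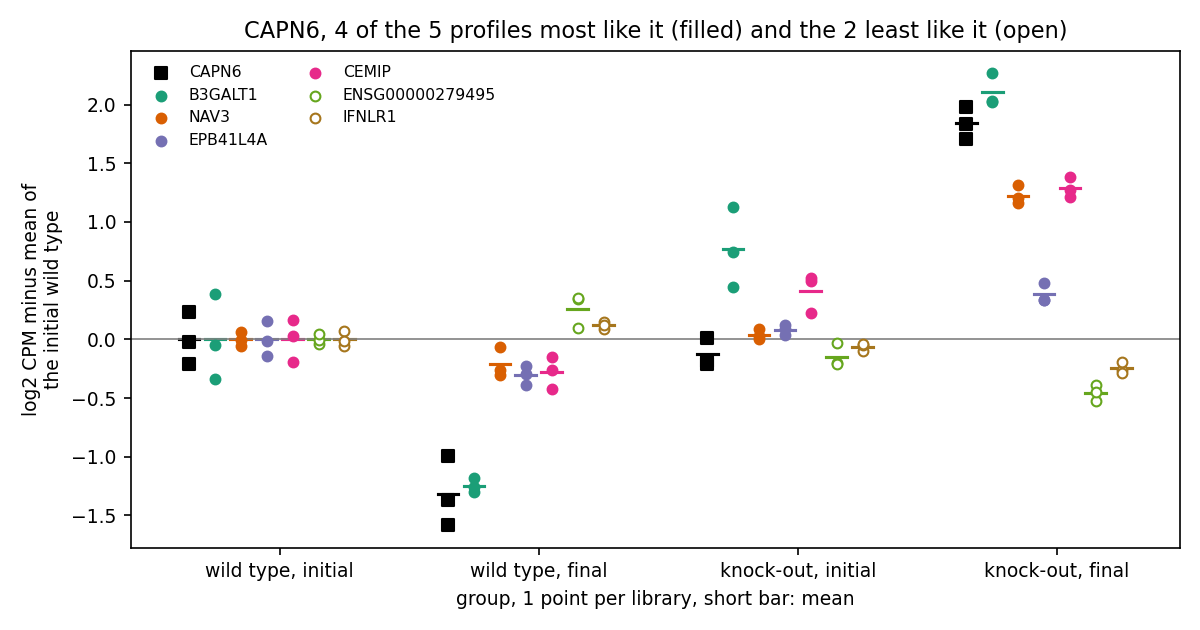
Log2 CPM minus the mean of the initial wild type for CAPN6 (squares), 4 of the 5 genes most like it (filled circles) and the 2 least like it (open circles), 1 point per library, with the group mean as a short bar. B3GALT1 has the range closest to that of CAPN6, while EPB41L4A is also lowest in the final wild type and highest in the final knock-out, with smaller differences.

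Genes for known calpain substrates in the cytoskeleton and at adhesion sites were followed as a list of 34, of which 33 were tested. At the initial harvest 6 were higher and 3 lower in the knock-out, and at the final harvest 3 were higher and 4 lower, with list medians of 0.08 and 0.00. That is 27.3% and 21.2% of the 33, beside 19.9% and 18.5% of all genes. VIM, the intermediate filament vimentin, had 4.15, 5.02 and 5.06 CPM in the initial wild type and 9.31, 11.3 and 12.1 CPM in the initial knock-out. It was higher in the knock-out by 1.20 at the initial (SE 0.124, adjusted p 3.42e-06) and by 0.96 at the final harvest (SE 0.128, adjusted p 4.66e-05). CDH1, E-cadherin, had 281.4, 196.1 and 229.3 CPM against 131.0, 114.2 and 106.9 CPM at the initial harvest, a log2 difference of -1.01 (SE 0.134, adjusted p 4.77e-05). At the final harvest the difference of CDH1 was -0.44 (SE 0.133, adjusted p 0.0291), a call that held in 16 of 20 alternatives. ITGB1, integrin beta 1, was lower at both harvests, at -0.51 (SE 0.102, adjusted p 0.00188) at the initial and -0.54 (SE 0.102, adjusted p 0.0012) at the final one. Over time in the wild type 0 of the 33 were called with edgeR and 1 with DESeq2, and 2 had an unadjusted p under 0.05. In the knock-out 1 was lower, CDK5R1, the CDK5 activator p35 that calpain trims to p25, at -0.40 (SE 0.0962, adjusted p 0.0499), a call that held in 9 of 20 alternatives. In the interaction 1 was negative, DES, the muscle filament desmin, at -0.78 (SE 0.177, adjusted p 0.0401), which held in 8 of 19 alternatives with adjusted p from 0.00959 to 0.123. Over time in the wild type, in the knock-out and in the interaction, 0%, 3.0% and 3.0% of the 33 were thus called. Of all genes these shares were 6.47%, 1.48% and 1.28%, and 3.0% of the 33 is 1 gene.

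In a list of 38 genes for tubulins, microtubule-binding proteins and the GEF-H1 axis, 36 were tested. At the initial harvest 3 were higher and 9 lower in the knock-out, and at the final harvest 2 were higher and 5 lower, with medians of -0.03 and -0.10. That is 33.3% and 19.4% of the 36, beside 19.9% and 18.5% of all genes. TUBA4A, an alpha tubulin, was higher at both harvests (0.81, SE 0.122, adjusted p 0.000158, and 0.66, SE 0.122, adjusted p 0.00104). TUBB2A, a beta tubulin, was lower at both (-1.08, SE 0.122, adjusted p 8.59e-06, and -1.44, SE 0.124, adjusted p 3.54e-07). Around TUBB2A on chromosome 6, 25 and 28 of the 29 genes tested within 1 Mb also lay below 0, with medians of -1.06 and -1.16, and the part of the region in its difference was not tested. Over time, 1 gene of the list was higher and 2 were lower in the wild type, and 1 was higher and 1 lower in the knock-out, 8.3% and 5.6% of the 36 beside 6.47% and 1.48% of all genes. ARHGEF2, which encodes GEF-H1, had 107.0, 113.0 and 102.1 CPM in the initial wild type, 75.2, 71.9 and 76.3 in the final wild type, 85.5, 84.3 and 81.8 in the initial knock-out and 62.0, 68.7 and 66.8 in the final knock-out. It fell by 0.53 over time in the wild type (SE 0.0725, adjusted p 0.000295) and by 0.35 in the knock-out (SE 0.0726, adjusted p 0.0228), the second a call held in 15 of 20 alternatives. Its interaction was 0.18 (SE 0.102, adjusted p 0.509), so the 2 falls were not shown to differ. ARHGEF2 was also lower in the initial knock-out than in the initial wild type (-0.36, SE 0.072, adjusted p 0.00209), a call held in 20 of 20 alternatives. At the final harvest its genotype difference was -0.18 (SE 0.0726, adjusted p 0.106). TUBA1A rose by 0.62 in the wild type (SE 0.101, adjusted p 0.0014). MAP2, a microtubule-associated protein of neurons, rose by 0.59 in the knock-out (SE 0.113, adjusted p 0.0137), a call that held in 16 of 20 alternatives with adjusted p up to 0.0937. MAP2 was lower in the initial knock-out than in the initial wild type (-0.76, SE 0.113, adjusted p 0.00013). At the final harvest its genotype difference was 0.08 (SE 0.111, adjusted p 0.691). It was among the 2 genes with a positive interaction (0.84, SE 0.158, adjusted p 0.0123). These 2 are 5.6% of the 36, beside 1.28% of all genes.

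Of 25 genes of calcium entry and release, the supply of the calpain activator, 24 were tested. The initial harvest gave 1 higher and 0 lower in the knock-out and the final harvest 3 higher and 1 lower, with medians of 0.06 and 0.03. That is 4.2% and 16.7% of the 24, beside 19.9% and 18.5% of all genes. RYR2, a ryanodine receptor, had 0 to 3 counts in each wild-type library, 11 or 12 in the initial knock-out and 9 to 20 in the final knock-out (initial adjusted p 0.00462). RYR2 passed the filter on low counts only through the knock-out libraries, where it was high. Its adjusted p and its place among the genes called higher are therefore no independent support for a difference. At these counts no fold is given. ITPR2, a receptor for inositol trisphosphate, was higher in the final knock-out (0.87, SE 0.119, adjusted p 6.35e-05), and MCU, the mitochondrial calcium channel, was lower (-0.28, SE 0.089, adjusted p 0.0358), the latter in 10 of 20 alternatives. Over time 1 gene was higher and 1 lower in the wild type and 2 were higher in the knock-out, 8.3% of the 24 in each, beside 6.47% and 1.48% of all genes. ITPR1 rose in both, by 0.46 (SE 0.0949, adjusted p 0.00685) and 0.50 (SE 0.0947, adjusted p 0.0129), and ORAI2, a channel of store-operated entry, fell by 0.35 in the wild type (SE 0.0877, adjusted p 0.0225). The call for ITPR1 in the knock-out and that for ORAI2 each held in 15 of 20 alternatives, with adjusted p up to 0.0842 and 0.109. ORAI2 differed by -0.20 over time in the knock-out (SE 0.0868, adjusted p 0.281). Its interaction was 0.15 (SE 0.123, adjusted p 0.667), so its changes were not shown to differ between genotypes. In the interaction 0 were called with edgeR and 1 with DESeq2, and 1 had an unadjusted p under 0.05. Of all genes 1.28% were called there with edgeR.

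Placental trophoblast genes were listed because CAPN6 is known from that tissue, and only 10 of the 17 passed the filter, so the counts do not describe the whole list. At the initial harvest 1 was higher and 2 lower, and at the final harvest 2 were higher and 1 lower in the knock-out, with medians of -0.45 and 0.18. Both counts are 30.0% of the 10, beside 19.9% and 18.5% of all genes. GCM1, a trophoblast transcription factor, had 6 to 8 counts in the initial wild type and 18 to 30 in the initial knock-out (1.71, SE 0.369, adjusted p 0.00336). At the final harvest it had 1 to 6 counts in the wild type and 9 to 12 in the knock-out (1.73, SE 0.503, adjusted p 0.0233). The final call held in 14 of 18 alternatives. GCM1 passed the filter on low counts only through the knock-out libraries, so these calls are no independent support for a difference. CYP19A1, aromatase, was higher in the final knock-out (0.68, SE 0.188, adjusted p 0.017, held in 16 of 20 alternatives with adjusted p up to 0.0894), and TFAP2C was lower (-0.48, SE 0.094, adjusted p 0.00164). TFAP2C was also lower in the initial knock-out (-0.42, SE 0.094, adjusted p 0.00463). PEG10, an imprinted gene derived from a retrotransposon, was lower in the initial knock-out (-0.62, SE 0.0895, adjusted p 0.00011). It fell by 0.50 over time in the wild type (SE 0.0893, adjusted p 0.00248) and had an interaction of 0.57 (SE 0.127, adjusted p 0.0326), which held in 11 of 19 alternatives with adjusted p up to 0.12. Over time in the knock-out 0 were called with edgeR and 0 with DESeq2, and 2 had an unadjusted p under 0.05. The calls over time in the wild type, in the knock-out and in the interaction are 10.0%, 0% and 10.0% of the 10. Beside them stand 6.47%, 1.48% and 1.28% of all genes, and 10.0% of the 10 is 1 gene. Across all 18289 genes the medians of the 5 comparisons lay between -0.000827 and 0.00565.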

How the data were processed

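Per the submitters' processing notes, reads were aligned with STAR and counted with featureCounts of Subread on hg38, with no versions; the use of strand and of reads with multiple alignments is not given in the sources used here. The values the authors deposited are raw counts by gene, beside summed exon lengths. Of its lines, 5 that hold 1 broken gene were left out. Of its IDs, 37318 carry the same version in GENCODE 29, all at the same GRCh38 position. Genes were filtered with filterByExpr by group and fitted in edgeR 4.0.16 (R 4.3.3) with TMM factors, robust dispersions and 1 mean per group over all 12 libraries. Adjusted p-values cover all 18289 genes, with a threshold of 0.05. TPM was computed from counts and exon length. The biological coefficient of variation was 9.77%. All libraries of a group differed by more than counting noise. Alternatives included DESeq2 1.42.0, other scalings and filters, and leaving out each library. The code was tested on simulated data.

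The members and lists were chosen with earlier results of these data known. Named were MTHFD2, the members, other calpain genes above 3 counts, the called gene with the smallest adjusted p in each direction per list and comparison, the 3 nearest protein-coding genes on each side of CAPN6, the 5 genes most (1 is not reported here) and the 2 least correlated with it (log2 CPM, prior count 2), and the lowest and highest markers.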

Additional observations from a re-analysis of the deposited data

Results flagged for a closer look

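Of the genes tested and named in the report, 4 were called in the interaction, beside 1.28% of all genes. MAP2, PEG10 and DES were named for being the top call of their list in this or another comparison. The number is thus only a description and cannot be read against that share. CAPN6 is given beside them with no test. B3GALT1, NAV3, CEMIP and EPB41L4A, picked for their likeness to CAPN6, had interactions of 2.58 (SE 0.324), 1.39 (SE 0.121), 1.15 (SE 0.15) and 0.61 (SE 0.161), also with no test. For CAPN6 the knock-out's change exceeded the wild type's by 3.27 on the log2 scale, and all 3 final libraries lay above the initial ones in the knock-out and below them in the wild type. This difference was not tested, because the gene was chosen for it. By edgeR's interaction test with adjustment over all genes, CAPN13 differed by 1.90 (adjusted p 0.00132), MAP2 by 0.84 (adjusted p 0.0123), PEG10 by 0.57 (adjusted p 0.0326) and DES by -0.78 (adjusted p 0.0401). The calls for CAPN13 and MAP2 held in all 19 alternatives, that for PEG10 in 11 and that for DES in 8. The log2 difference of knock-out from wild type went from -0.76 at the initial to 0.08 at the final harvest for MAP2. For PEG10 it went from -0.62 to -0.04.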

How the results depend on the processing

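CAPN6 kept its direction and moved by less than 0.205, the SD between libraries on the log2 scale, in all 5 comparisons under every alternative: -0.24 to -0.01 and 3.00 to 3.31 for the genotype at the initial and final harvest, -1.48 to -1.17 and 1.88 to 2.04 over time in the wild type and knock-out, and 3.13 to 3.44 for the interaction. The count of other members called at the initial harvest, 1, ranged from 0 to 1 with each library left out in turn. The count at the final harvest, also 1, became 0 with library totals only, without a filter and with only the groups compared, and ranged from 0 to 1 with each library left out. Over time in the wild type DESeq2 called 1 member instead of 0. Of 792 values of these members under alternatives, 52 had the other sign, all without a call in either setting. The cause was not tested. Deviations of same-numbered libraries from their group means had correlations from -0.358 to 0.238 over 18 pairs, 6 of them above 0.1. The numbers were thus not shown to pair the libraries of all groups. Replicate 1 of the initial wild type, final wild type and initial knock-out had 0.15 to 0.238 with each other. With replicate 2 of the final knock-out they had 0.283 to 0.345. A property shared by these libraries was not tested. A replicate block gave a final genotype difference of 3.14 for CAPN6 and left 1 member called at each harvest.

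Counts in the lists that moved by over 1.5 times under some setting are given with their range. Of the other calpains, 1 at the initial harvest became 0 to 1 and 2 at the final harvest 1 to 3. Of the substrates, 9 at the initial harvest became 5 to 11, 0 over time in the wild type 0 to 1, 1 in the knock-out 0 to 4 and 1 in the interaction 0 to 3. Of the microtubule genes, 12 at the initial harvest became 7 to 16, 7 at the final harvest 4 to 9, 3 over time in the wild type 3 to 6, 2 in the knock-out 0 to 3 and 2 in the interaction 1 to 5. Of the calcium genes, 1 at the initial harvest became 0 to 2, 4 at the final harvest 2 to 5, 2 over time in the wild type 1 to 2, 2 in the knock-out 0 to 3 and 0 in the interaction 0 to 1. Of the placental genes, 3 at the final harvest became 1 to 4 and 1 in the interaction 0 to 1. Without strand information, genes that overlap 6 of the 9 members could share their reads.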
